A study of Mus musculus with 6 samples.

Results

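The genes described here are 10 regulators and markers of the formative and primed epiblast, out of 19938 named genes on the arrays: Fgf5, Otx2, Pou3f1, Sox3, Zic2, Foxd3, Sox4, Grhl2, Sall2 and Pim2. They were taken by gene symbol, each from the row of the deposited table that lists that gene alone. Each gene had exactly 1 such row, so no choice between rows was needed. Affymetrix whole-transcript arrays measured their RNA in E14 mouse embryonic stem cells, in 3 arrays of Tdg knockdown cells and 3 arrays of control cells. Tdg encodes thymine DNA glycosylase, which starts base excision repair at oxidised cytosines made by TET enzymes and at mismatched thymine. One protocol is given for both groups: gelatin at 0.1%, serum at 15%, leukaemia inhibitory factor at 1000 units/ml, lentiviral infection at a multiplicity of infection of 10, and puromycin at 2 ug/ml from 48 h after infection. The labels do not state what vector the control cells carried, how the knockdown was made beyond the lentivirus. They also do not say that replicate arrays stem from separate cultures. The p-values therefore reflect array-to-array spread, which may be technical.

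Pluripotent cells of the mouse pass through successive states. Naive cells of the preimplantation epiblast, which serum and leukaemia inhibitory factor approximate in culture, give way around implantation to formative and then primed cells that can answer signals for the germ layers. During this transition naive factors decline, and FGF and ERK signalling, OTX2 and partner factors of OCT4 switch on a new set of enhancers. Embryonic stem cells in serum are a mixed population in which some cells express epiblast genes. In bulk RNA of this kind, fewer cells expressing a gene and less RNA per expressing cell cannot be told apart.

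The arrays of both groups correlated at 0.99 to 0.998 across named genes. Knockdown replicate 3 stood apart, at 31 on the first principal component (58.6% of the variance), while the other knockdown arrays lay at -3.5 and -7.1 and the control arrays between -17.5 and 5.2. The 4 rows that list Tdg together with its pseudogene Tdg-ps2 averaged 8.24, 8.15 and 7.93 on the log2 scale in knockdown arrays, against 11.12, 11.2 and 11.1 in control arrays. That is a log2 difference of -3.03 (SE 0.09, limma adjusted p 8.79e-05). The extraction protocol names Kdm2b knockdown cells where titles and design name Tdg, and the Kdm2b row differed by 0.10 (limma adjusted p 0.694).

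Promoter sequence is shown for Fgf5 and Sox4, which were lower in every knockdown array than in every control array, and for Foxd3, which was higher. The cytosines that TET enzymes oxidise lie mostly in CG dinucleotides, and these are in capitals. The sequences are the 250 bases before the RefSeq gene start in GRCm38.p6, written 5′ to 3′ on the gene's strand. They lie at chr5:98253934-98254183 on the plus strand for Fgf5, chr13:28953700-28953949 on the minus strand for Sox4 and chr4:99656049-99656298 on the plus strand for Foxd3.
Fgf5: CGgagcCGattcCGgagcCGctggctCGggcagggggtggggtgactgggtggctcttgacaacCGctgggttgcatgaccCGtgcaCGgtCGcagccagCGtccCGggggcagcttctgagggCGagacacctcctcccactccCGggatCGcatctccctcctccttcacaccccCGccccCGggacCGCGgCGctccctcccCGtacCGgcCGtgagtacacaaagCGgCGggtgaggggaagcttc
Sox4: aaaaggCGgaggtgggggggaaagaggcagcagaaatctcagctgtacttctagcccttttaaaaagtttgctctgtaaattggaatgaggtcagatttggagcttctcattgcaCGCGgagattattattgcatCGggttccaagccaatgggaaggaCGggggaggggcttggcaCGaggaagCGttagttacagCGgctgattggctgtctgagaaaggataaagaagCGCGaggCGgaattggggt
Foxd3: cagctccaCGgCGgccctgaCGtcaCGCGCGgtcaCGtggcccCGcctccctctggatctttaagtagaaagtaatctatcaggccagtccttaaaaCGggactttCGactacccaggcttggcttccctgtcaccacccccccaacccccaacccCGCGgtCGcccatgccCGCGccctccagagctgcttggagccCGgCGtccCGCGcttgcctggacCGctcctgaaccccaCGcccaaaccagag
Fgf5 held 24 CG dinucleotides, more than 83.2% of the 19177 windows of the same length before named genes, whose median was 11. Foxd3 held 21, more than 76.7% of windows. Sox4 held 11, the median of all windows. Methylated and oxidised cytosines were not measured here, so these counts describe sequence only.

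RefSeq windows were matched for 6 of the 10 genes, at 10 gene starts, since Otx2 has 4 starts and Sall2 has 2. The CG count in these windows ran from 0 at one Sall2 start to 24 at Fgf5, with 22 at Pim2 and 6, 8, 9 and 14 at the Otx2 starts. Motifs of the TCF/LEF, OTX and GRHL families were searched on both strands, and none contains another. Otx2 and Grhl2 are themselves among the 10 genes. The TCF/LEF motif CTTTGAT was in 1 of the 10 windows, that of Pim2, and in 2.82% of all windows. The OTX motif TAATCC was in 1, an Otx2 window, against 5.81% of all windows, and the GRHL motif AACCNGTT was in 0, against 1.68%. A match describes letters in these windows only.

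None of the 10 genes passed the threshold between knockdown and control cells, an adjusted p of 0.05 in limma over all named genes without a replicate block. The background was 158 genes called, 0.792% of those tested. With the replicate number as a block 2 of the 10 passed, Fgf5 (adjusted p 0.0329) and Zic2 (0.0368), against 3.08% of all genes. At an unadjusted p under 0.05 and without the block there were 5 of the 10, against 12.5% of all genes. These were Fgf5, Otx2 and Sox4 lower (3 genes, against 7.48% of all genes) and Zic2 and Foxd3 higher (2 genes, against 5.03%). The same 5 genes had groups that did not overlap, against 19% of all genes, with 3 lower (11% of all genes) and 2 higher (7.98%). The other 5, Pou3f1, Sox3, Grhl2, Sall2 and Pim2, had overlapping groups and differences of 0.09 or less in size. The median difference over the 10 genes was -0.07 on the log2 scale, against 0.02 over all named genes, and the median size was 0.2, against 0.09. No test was made of these shares or medians, because the genes were chosen with earlier results of these data known.

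**Figure D1:**
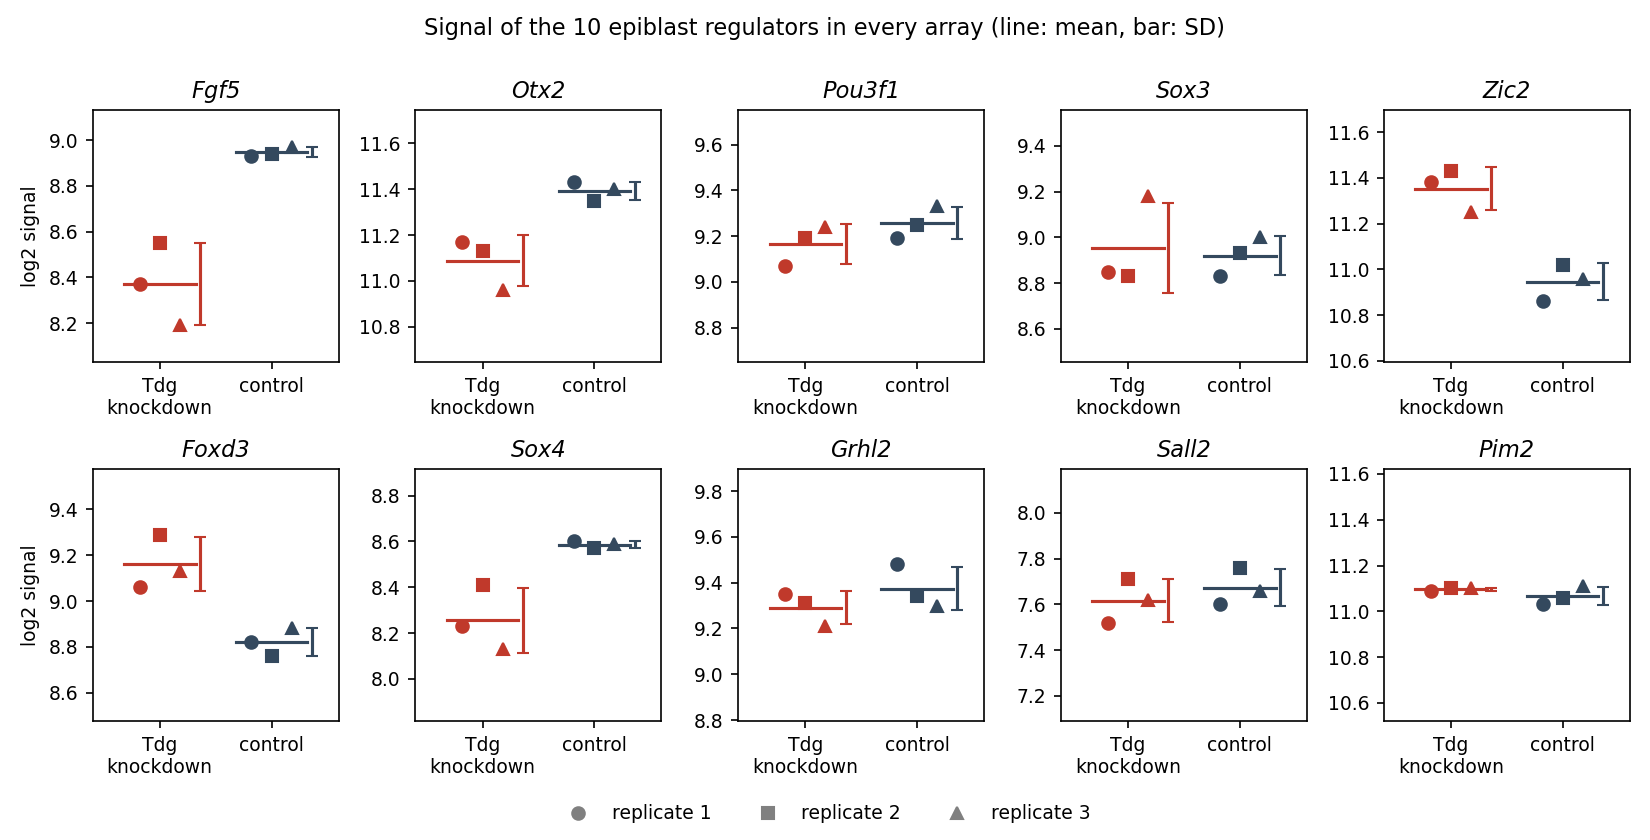
Log2 signal of each of the 10 genes (vertical axis, the same span of log2 units in every panel) in Tdg knockdown arrays (left, red) and control arrays (right, blue). Symbols mark the replicate number, lines the group mean and bars the SD of 3 arrays; Fgf5, Otx2 and Sox4 lie lower and Zic2 and Foxd3 higher in all knockdown arrays, and the other 5 panels overlap.

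Fgf5 encodes a secreted fibroblast growth factor that is a classic marker of the postimplantation epiblast and is nearly silent in naive cells. Its log2 signal was 8.37, 8.55 and 8.19 in knockdown arrays, against 8.93, 8.94 and 8.97 in control arrays. The control arrays lay within 0.04 of each other, and every knockdown array was below them. The knockdown mean was 67.1% of the control level, a log2 difference of -0.58 (SE 0.1, 95% interval -0.8 to -0.35). The limma adjusted p was 0.0536, just short of the threshold. With the replicate number as a block it was 0.0329. Among the 10 genes this was the largest difference in size. In an exact two-sided permutation test its p was 0.1, the smallest that 3 against 3 arrays allow, and the same p held for Otx2, Sox4, Zic2 and Foxd3.

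Knockdown replicate 3 had the lowest Fgf5 signal, 0.27 below the mean of the other knockdown arrays. Without that array the Fgf5 difference was smaller, at -0.49, and its adjusted p in limma was 0.0337. Between arrays of the same number the Fgf5 differences were -0.56, -0.39 and -0.78. All 3 were negative, as any pairing of these arrays would give, because the groups do not overlap.

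Otx2, a homeodomain factor that drives exit from the naive state and directs OCT4 to new enhancers, had log2 signals of 11.17, 11.13 and 10.96 in knockdown arrays, against 11.43, 11.35 and 11.4 in control arrays. The groups did not overlap, and the lowest value was again that of knockdown replicate 3. The difference was -0.31 (SE 0.08, 95% interval -0.48 to -0.13), or 80.9% of the control level. It did not pass the threshold (limma adjusted p 0.136, or 0.0673 with the replicate block). Without knockdown replicate 3 the Otx2 difference was -0.24.

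Sox4 encodes an HMG-box factor of the SOXC group, known for roles in progenitor cells and in epithelial plasticity. Its log2 signal was 8.23, 8.41 and 8.13 in knockdown arrays, against 8.6, 8.57 and 8.59 in control arrays. As for Fgf5, the controls lay close together, within 0.03, while the knockdown arrays spread over 0.28 and were all lower. The difference was -0.33 (SE 0.08, 95% interval -0.52 to -0.14), 79.6% of the control level (limma adjusted p 0.143). Fgf5, Otx2 and Sox4 were each lowest in knockdown replicate 3, the array that stood apart across all genes. The part of that array in the 3 differences is given by the values without it, which were -0.49, -0.24 and -0.27.

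Zic2, a zinc-finger factor found at enhancers of naive and primed cells and needed later in forebrain development, went the other way. Its log2 signal was 11.38, 11.43 and 11.25 in knockdown arrays, against 10.86, 11.02 and 10.96 in control arrays. Every knockdown array lay above every control array, and the gap was at least 0.23. The difference was 0.41 (SE 0.08, 95% interval 0.23 to 0.59), or 133% of the control level. The limma adjusted p was 0.0751, and 0.0368 with the replicate block. Without knockdown replicate 3, which had the lowest Zic2 signal of its group, the difference was 0.46 (limma adjusted p 0.0359).

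Foxd3 encodes a forkhead factor that is required to maintain the epiblast and acts at enhancers during the naive to primed transition. It had log2 signals of 9.06, 9.29 and 9.13 in knockdown arrays, against 8.82, 8.76 and 8.88 in control arrays. The groups did not overlap, and knockdown replicate 2 was the highest. The difference was 0.34 (SE 0.08, 95% interval 0.15 to 0.53), 127% of the control level (limma adjusted p 0.123, or 0.0729 with the replicate block). Without knockdown replicate 3 the Foxd3 difference was 0.36, close to that with all arrays.

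The 2 genes that passed with the replicate block, Fgf5 lower and Zic2 higher, also passed without knockdown replicate 3 and no block, against 1.46% of all genes. The pair also passed when the rows of lowest mean level were left out of the test, which called 2.37% of genes. A trended and robust prior added Otx2 (3 of 10, against 2.24%), and array weights added Otx2, Foxd3 and Sox4 (5 of 10, against 9.13%). After quantile normalization Fgf5 alone passed (1 of 10, against 0.988%). Leaving out any of the other 5 arrays gave 0 of the 10 (5 at an unadjusted p under 0.05 each time), with 0 to 15 genes called over the whole table. The Fgf5 difference ran from -0.67 to -0.49 over the 6 fits that each left out 1 array, and the Zic2 difference from 0.36 to 0.46. Thus the estimates moved little and the adjusted p moved across the threshold, from 0.0337 to 0.262 for Fgf5 and from 0.0359 to 0.289 for Zic2.

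**Figure D2:**
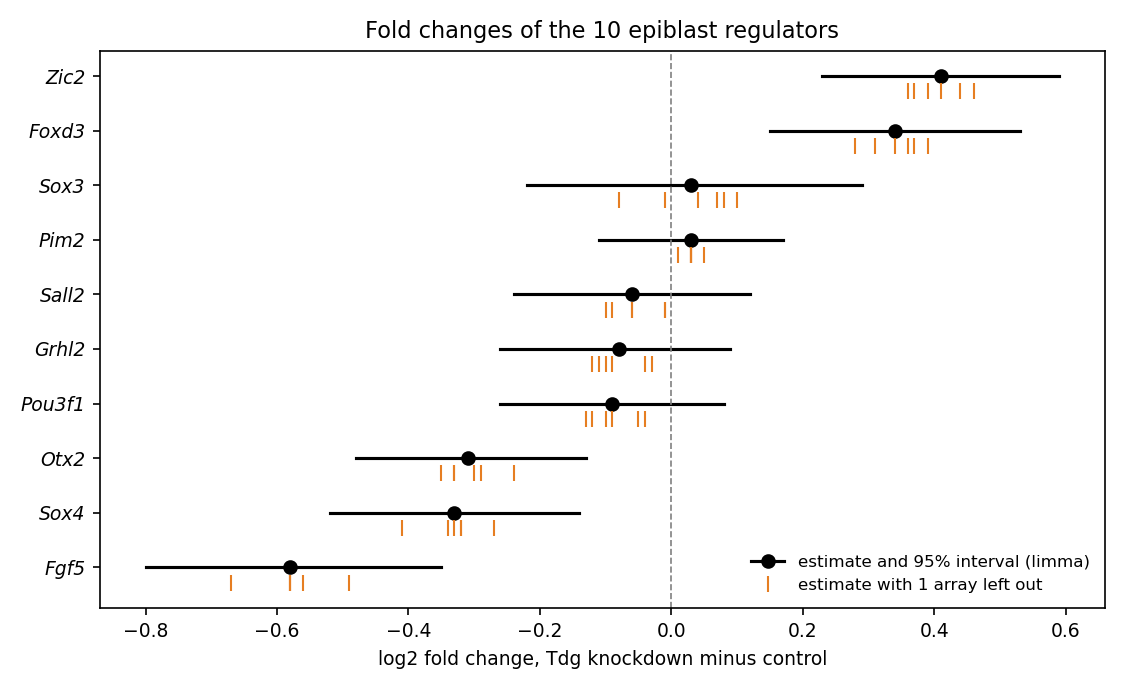
Log2 fold change of the 10 genes (horizontal axis, Tdg knockdown minus control), with the limma estimate and 95% interval in black and the 6 estimates that each leave out 1 array as orange ticks. The intervals of Zic2 and Foxd3 lie above 0 and those of Otx2, Sox4 and Fgf5 below 0, before any adjustment for the number of genes; the ticks of Sox3 fall on both sides of 0.

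Pou3f1, the POU-domain factor OCT6 of epiblast and neural cells, is often read together with Fgf5 and Otx2 as a formative marker. Its log2 signal was 9.07, 9.19 and 9.24 in knockdown arrays, against 9.19, 9.25 and 9.33 in control arrays, and the groups overlapped. The difference was -0.09 (SE 0.07, 95% interval -0.26 to 0.08; limma adjusted p 0.709). Each knockdown array was below the control array of its number, by 0.12, 0.06 and 0.09. The interval reaches -0.26, so a decrease as large as the Fgf5 estimate lies outside it.

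Sox3 encodes a SOXB1 factor of the epiblast and the early neural plate. It had log2 signals of 8.85, 8.83 and 9.18 in knockdown arrays, against 8.83, 8.93 and 9 in control arrays. Knockdown replicate 3 lay 0.34 above the mean of the other knockdown arrays, the largest such deviation among the 10 genes. The Sox3 difference was 0.03 (SE 0.11, 95% interval -0.22 to 0.29; limma adjusted p 0.93). It was -0.08 without knockdown replicate 3 and -0.01 without control replicate 1, so its sign was not settled.

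Grhl2 encodes a grainyhead-like factor that opens enhancers of epithelial genes as cells become formative. Its log2 signal was 9.35, 9.31 and 9.21 in knockdown arrays, against 9.48, 9.34 and 9.3 in control arrays. The groups overlapped, and the difference was -0.08 (SE 0.08, 95% interval -0.26 to 0.09; limma adjusted p 0.74). Sall2, a zinc-finger factor of the spalt family, had 7.52, 7.71 and 7.62 in knockdown arrays, against 7.6, 7.76 and 7.66 in control arrays. Its row was near the array medians of 7.41 to 7.48, and its difference was -0.06 (SE 0.08, 95% interval -0.24 to 0.12; limma adjusted p 0.827). As for Pou3f1, each knockdown array was below the control array of its number, for both Grhl2 and Sall2.

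Pim2, a serine/threonine kinase that promotes survival and growth downstream of cytokine signals, was the steadiest of the 10 genes. It had log2 signals of 11.09, 11.1 and 11.1 in knockdown arrays, against 11.03, 11.06 and 11.11 in control arrays. The widest range within a group was 0.08. The difference was 0.03 (SE 0.06, 95% interval -0.11 to 0.17; limma adjusted p 0.878). This was the narrowest interval of the 10, and its bounds lay within 0.17 of 0.

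The 10 genes belong to families with other members on the arrays, and 24 paralogues out of 25 listed were measured. None of the 24 passed the threshold in limma with or without the replicate block (5 and 4 at an unadjusted p under 0.05), and their differences ran from -0.27 to 0.31 with a median of 0.05. The FGF-family genes Fgf4, a growth factor made by naive cells, and Fgf6 differed by 0.04 and 0.11 (limma adjusted p 0.863 and 0.839), beside -0.58 for Fgf5. Otx1 and Crx, the other OTX genes, differed by -0.03 and 0.00 (0.926 and 0.992), beside -0.31 for Otx2. The mean log2 levels of Fgf6, Otx1 and Crx were 5.96, 6.7 and 5.69, below the array medians of 7.41 to 7.48. Whether rows this low could show a decrease was not tested. Among the SOXC genes, Sox12 and Sox11 differed by -0.04 and -0.05 (0.838 and 0.891), beside -0.33 for Sox4. In these 3 families the epiblast gene had the lowest value, as did Pou3f1, Grhl2 and Sall2 in theirs, and differences between family members were not tested.

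Zic5, which shares its locus and much of its expression with Zic2, differed by 0.25 (limma adjusted p 0.227, 0.0816 with the replicate block). Its log2 signals were 11.67, 11.72 and 11.75 in knockdown arrays, against 11.33, 11.53 and 11.53 in control arrays, and the groups did not overlap. Zic1 differed by 0.10 (0.674). Of the FOXD genes, Foxd1 differed by 0.31 (0.166) and Foxd2 by 0.10 (0.812), beside 0.34 for Foxd3. The values of these paralogues had the sign of Zic2 and Foxd3, and none passed. Of the 19938 named genes, 11063 also lay above 0. Zic1, Foxd1 and Foxd2 had mean log2 levels of 5.82, 6.17 and 7.1, below the array medians of 7.41 to 7.48. The groups of Foxd1 did not overlap.

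In the families of the 5 genes with overlapping groups, differences ran from -0.27 for Pim1 to 0.24 for Sall3. Sox2, the SOXB1 partner of OCT4, differed by -0.10 (limma adjusted p 0.691) and Sox1 by 0.06 (0.838). Pou3f3 and Pou3f4, POU factors of neural cells, differed by 0.13 (0.686) and 0.10 (0.73). Grhl1 and Grhl3, known from surface epithelia, differed by 0.18 (0.468) and -0.02 (0.955). Sall3 and Sall1 differed by 0.24 (0.264) and 0.11 (0.498). The groups of Grhl1, Sall1 and Sall3 did not overlap, and none of these genes passed. Pim1, a target of STAT3 downstream of leukaemia inhibitory factor, had 11.28, 11.36 and 11.32 in knockdown arrays, against 11.55, 11.59 and 11.62 in control arrays, a difference of -0.27 (limma adjusted p 0.113, or 0.06 with the replicate block). The groups of Pim1 did not overlap, and Pim3 differed by -0.01 (0.967). Of the 24 paralogues, 5 lay higher without overlap (Zic5, Foxd1, Grhl1, Sall1 and Sall3), against 7.98% of all genes. Only 1 lay lower without overlap (Pim1), against 11% of all genes.

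**Figure D3:**
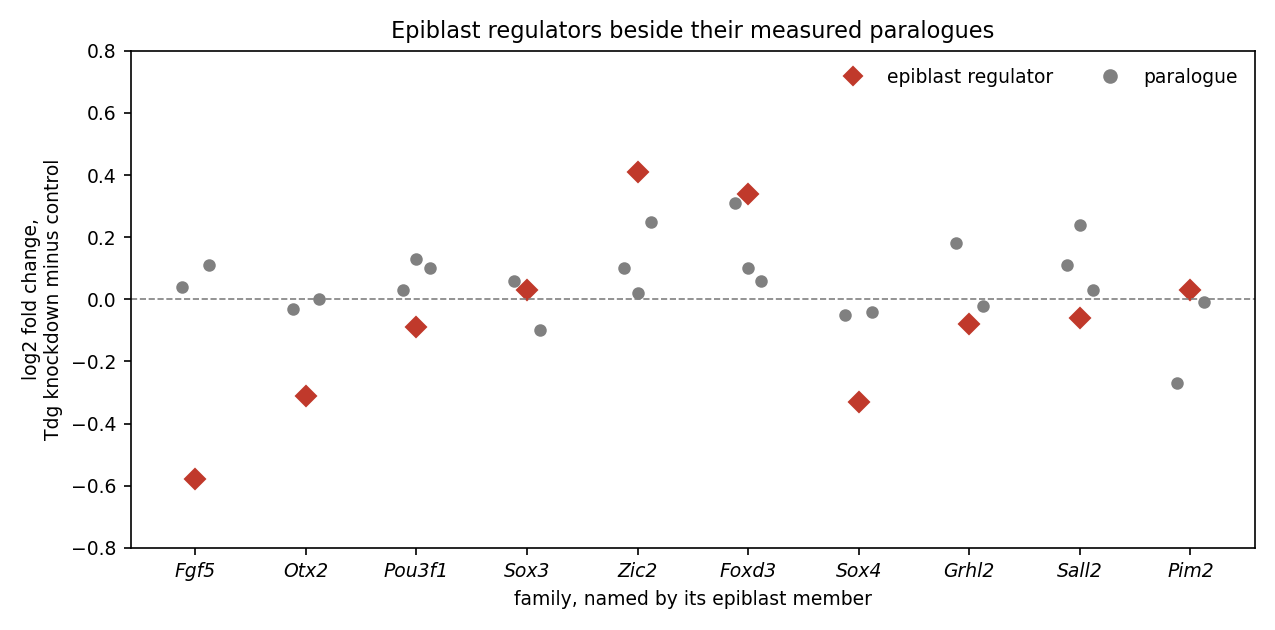
Log2 fold change (vertical axis, Tdg knockdown minus control) of each of the 10 genes (red diamonds) beside its measured paralogues (grey circles), 1 column per family. Fgf5, Otx2, Sox4, Pou3f1, Grhl2 and Sall2 lie below all of their measured paralogues, and the paralogues run from -0.27 for Pim1 to 0.31 for Foxd1.

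Other genes of the formative and primed epiblast were described from a list of 18, of which 17 were measured. Of these, Lef1 rose, Cldn6 fell and 15 did not pass, where 0.792% of all named genes were called. The list median was 0.00, against 0.02 for all genes. Lef1, a transcriptional effector of WNT signalling, had 8.91, 9.03 and 8.87 in knockdown arrays, against 8.44, 8.5 and 8.39 in control arrays, a difference of 0.49 (SE 0.07, limma adjusted p 0.036). Cldn6, a tight junction claudin of early epithelia, had 11.9, 11.94 and 11.87 in knockdown arrays, against 12.29, 12.35 and 12.37 in control arrays, a difference of -0.43 (SE 0.06, limma adjusted p 0.0336). Both calls were lost when each array was centred on its median (limma adjusted p 0.0568 and 0.0555), and without any array but knockdown replicate 3 (0.0921 to 0.234 over both genes). They were also lost without both arrays numbered 3 (0.0605 and 0.0716) and in a limma test against a 1.2-fold change (treat).

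The list did not move one way. Cdh2, the neural cadherin, and Etv4, an ETS factor induced by ERK, differed by 0.43 (limma adjusted p 0.0624) and 0.39 (0.101), and passed with the replicate block (0.0325 and 0.0305). Etv5, Dusp6 and Fgfr1, also of FGF and ERK signalling, differed by 0.06 (limma adjusted p 0.738), -0.13 (0.521) and -0.17 (0.35). They did not pass with the block (0.522, 0.224 and 0.146). With the block 3 genes of the list passed higher and 1 lower, where 3.08% of all named genes were called. The de novo methyltransferase genes Dnmt3a and Dnmt3b, whose products accumulate as cells leave the naive state, differed by 0.01 (0.968) and 0.19 (0.323). Utf1, Tdgf1 and Nodal, expressed in both naive cultures and the epiblast, differed by -0.04 (0.851), -0.04 (0.843) and -0.06 (0.77). Cdh2, Etv4, Etv5, Dusp6, Fgfr1, Dnmt3a, Dnmt3b, Utf1, Tdgf1 and Nodal were named after their values were seen.

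Genes of the naive state and of the core pluripotency network were set beside the epiblast genes. Of 14 naive genes 0 passed in limma (2 at an unadjusted p under 0.05), with a median of 0.04 and a range of -0.2 to 0.38. The 2 with the smallest p were Nr0b1, an orphan nuclear receptor gene of naive cells (0.38, limma adjusted p 0.052, or 0.0306 with the replicate block), and Tbx3, a T-box factor gene (-0.2, 0.232). Nanog, Klf4 and Esrrb, central naive factors named after their values were seen, differed by 0.02, 0.09 and 0.00. Of 8 core genes 0 passed in limma (1 at an unadjusted p under 0.05), with a range of -0.1 to 0.16. The 2 with the smallest p were Nacc1 (0.16, limma adjusted p 0.359) and Lin28a (0.09, 0.634). Pou5f1, which encodes OCT4 and was named after its value was seen, differed by 0.04 (95% interval -0.1 to 0.18).

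Epithelial genes reported as bound by GRHL2 lay mostly below 0, while Grhl2 itself differed by -0.08. All 11 measured genes had values below 0, a count that was 9 of 11 after quantile normalization and also without knockdown replicate 3. Of all named genes 44.5% lay below 0. The list median was -0.21, against 0.02 over all genes, and no test was made since the list was drawn up with earlier results known. Of the 11, Cldn7 fell and 10 did not pass, where 0.792% of all named genes were called. Cldn7, another tight junction claudin, had 9.04, 9.26 and 9.31 in knockdown arrays, against 9.83, 9.86 and 9.82 in control arrays, a difference of -0.63 (SE 0.08, limma adjusted p 0.0318). Its call was lost after quantile normalization (0.0551), with treat against 1.2-fold (0.464) and without any array but knockdown replicate 3 (0.0921 to 0.208).

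With the replicate block 4 of the 11 epithelial genes passed, all lower, against 3.08% of all named genes. They were Cldn7, the protease gene Prss8 (-0.41, blocked limma adjusted p 0.0305), and the simple keratin genes Krt8 (-0.38, 0.0329) and Krt18 (-0.32, 0.0445). Cdh1, the epithelial cadherin, differed by -0.08 (limma adjusted p 0.674) and Epcam by -0.01 (0.98), both named after their values were seen, as were Prss8, Krt8 and Krt18. The list was assembled from general knowledge of GRHL2 and was not drawn from binding data of these cells, so GRHL2 binding was not measured here.

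**Figure D4:**
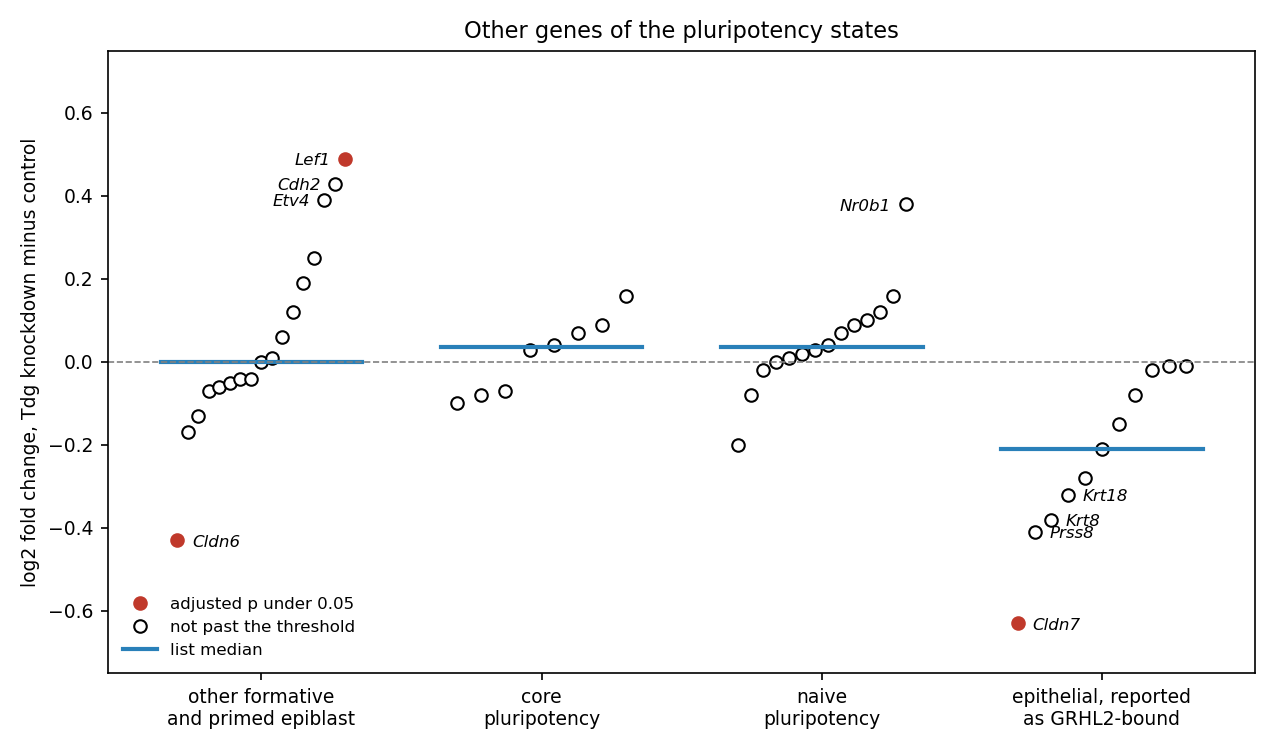
Log2 fold change (vertical axis, Tdg knockdown minus control) of every measured gene in 4 lists, with filled red circles for genes past the threshold in limma, open circles for the others and a blue line at each list's median. Lef1, Cldn6 and Cldn7 are filled, the medians of the first 3 lists lie between 0.00 and 0.04, and the epithelial list has a median of -0.21 with all 11 genes below 0 (9 after quantile normalization).

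Markers of other cell types that such cultures could hold were set beside these values. The mean level over 7 neuroectoderm genes was 8.2, 8.27 and 8.32 in knockdown arrays, against 8.05, 8.22 and 8.15 in control arrays. In that list Pax6 rose (0.93, SE 0.09, limma adjusted p 0.0145), Nes differed by -0.6 (0.0845) and Tubb3 by 0.36 (0.124), and the last pair passed with the block (0.0245 and 0.0423). The Pax6 call was lost without any array but knockdown replicate 3 (0.0589 to 0.106) and with treat against 1.2-fold (0.0825). Nes and Tubb3 were named after their values were seen. The mean over 6 primitive endoderm genes was 7.26, 7.22 and 7.43 in knockdown arrays, against 7.24, 7.28 and 7.36 in control arrays, with Dab2 at -0.3 (0.196) and Sox17 at 0.15 (0.65). Of 6 primitive streak, 6 primitive endoderm, 5 trophoblast and 7 fibroblast genes, 0 passed in limma with or without the block (0, 1, 2 and 0 genes at an unadjusted p under 0.05 without the block, and 1, 1, 2 and 0 with it).

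Over 6 primitive streak genes the mean level was 7.03, 7.09 and 7.15 in knockdown arrays, against 6.91, 7.03 and 7.05 in control arrays, with Foxa2 at 0.15 (0.46) and Mesp1 at 0.24 (0.561). Over 5 trophoblast genes it was 7.67, 7.66 and 7.85 in knockdown arrays, against 7.63, 7.69 and 7.75 in control arrays, with Krt7 at -0.19 (limma adjusted p 0.225) and Hand1 at 0.32 (0.311). Over 7 fibroblast genes it was 6.67, 6.63 and 7 in knockdown arrays, against 6.61, 6.74 and 6.84 in control arrays, with Lum at 0.12 (0.743) and Dcn at -0.1 (0.8). Knockdown replicate 3 was the highest array in all 5 of these cell type lists. This was not particular to cell type markers, since the paralogue list was also highest there, at 8.72 against 8.52 to 8.62 elsewhere. In the lists of other epiblast, core, naive and epithelial genes that array was not the highest. The part of the 5 cell types in the values of Fgf5, Otx2, Sox4, Zic2 and Foxd3 was not tested.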

How the data were processed

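RNA was measured on 6 arrays, 3 per group, and the groups and replicate numbers were taken from the sample titles. The deposited values are log2 signals between 2.26 and 14.03, 1 per probe set and array, and the submitters' processing notes name Affymetrix Expression Console. The log2 scale was read from the range of the values. Its version and the summarisation and normalization steps are not stated in labels or headers. Depth has no meaning for arrays, where the number of arrays limits the precision.

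Of 35557 rows, 21789 have 1 gene in the platform annotation, 1621 several and 12147 none. Symbols were updated by gene identifier from RefSeq for 21698 rows. Where a gene had more than 1 row, that of highest mean level was used, which left 19938 named genes. Tdg was the mean of 4 shared rows, fitted beside them. Groups were compared with limma 3.58.1 (lmFit, eBayes, two-sided) in R 4.3.3, with Benjamini-Hochberg adjustment over all named genes and a threshold of 0.05. Differences are knockdown minus control, SDs are over 3 arrays, and intervals are 95% limma intervals. The procedure was tested on simulated data.

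The genes described and all gene lists were chosen with earlier results of these data known. The text names all 10 genes, the paralogues and list members past the threshold (up to 4 per direction) or with the smallest p (2 where none passed), and Tdg. Genes beyond that rule are marked. Some listed genes are not reported here.

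Same-numbered arrays deviated together from their group means, with correlations of 0.61, 0.23 and 0.70, above the criterion of 0.1 in each pair. The main fit compares the groups only and leaves this pairing out, although the criterion was met. The fit with the block, which uses the pairing, is an alternative whose value stands beside each call it changes. No label says what a number shares, and so few arrays allow a good match by chance: knockdown replicate 2 correlated at 0.44 with control replicate 1.

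Alternatives tried were quantile normalization, median centring, the replicate block, leaving out the rows of lowest mean level (33.3% of rows), array weights, a trended and robust prior, averaging a gene's rows, all rows tested, a minimum change of 1.5-fold, treat against 1.2-fold, and leaving out each array or both arrays numbered 3.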

Additional observations from a re-analysis of the deposited data

How the results depend on the processing

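Among the 10 genes, 0 passed in limma with all arrays (5 at an unadjusted p under 0.05). With the replicate block 2 passed (Fgf5 and Zic2), without the rows of lowest mean level 2 (the same genes), after quantile normalization 1 (Fgf5, adjusted p 0.05 after rounding), with a trended and robust prior 3 (Fgf5, Zic2 and Otx2) and with array weights 5 (also Foxd3 and Sox4). Leaving out 1 array gave 0 to 2. In the other 6 settings 0 passed. Over all named genes 158 passed, against 614 with the replicate block, 351 without the rows of lowest mean level, 446 with the trended and robust prior, 1821 with array weights, 75 at a change of at least 1.5-fold, 14 with treat, 17 over all rows, and 0 to 291 with 1 array left out. The 0 in limma came when leaving out replicate 1 or replicate 2 of the controls (1682 and 1510 genes at an unadjusted p under 0.05) or knockdown replicate 1 (1958 such genes). The sign of Sox3, 0.03 with all arrays, was negative with array weights (-0.06) and without both arrays numbered 3 (-0.04), and ran from -0.08 to 0.10 with 1 array left out. The other 9 genes kept their sign in every setting run. The Tdg difference ran from -3.10 to -2.94 with 1 array left out (adjusted p 1.94e-05 to 0.00368). Array weights were estimated gene by gene. The causes of these differences were not tested. Leaving out rows or testing all rows changes the number of tests, but not only that. Without the rows of lowest mean level the SE was lower for some genes, as for Fgf5 (0.1 to 0.09) and Zic2 (0.08 to 0.07). For others it was the same after rounding, as for Foxd3 (0.08). Each of the 10 genes has a single row, so the alternative of other rows gave no value. Signal over background was not analysed here.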

Other observations

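The genes next to the 10 epiblast genes on their chromosomes were read from the RefSeq gene order, a comparison chosen after the main values were seen. The nearest protein-coding gene with a row of its own on each side gave 20 neighbours. None of the 20 passed in limma (1 had an unadjusted p under 0.05), and their differences ran from -0.29 to 0.25. Beside Fgf5 (-0.58), Prdm8 differed by 0.09 (limma adjusted p 0.788) and Cfap299 by 0.00. Beside Otx2 (-0.31), Exoc5 and Tmem260 each differed by 0.14. Beside Zic2 (0.41), Zic5 differed by 0.25 (0.227) and Pcca by -0.26 (0.444). Beside Foxd3 (0.34), Alg6 differed by -0.29 (0.526) and Atg4c by -0.25 (0.701). Zic5 is a ZIC family gene and the others are not paralogues of the gene they adjoin.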
